A study of Mus musculus with 29 samples.

Results

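Dendritic cells of the mouse brain after stroke were examined as the cells that the authors' deposited annotation places in its class DC. They were 3748 of 55268 brain cells in 18 libraries, in a series of 106977 cells that also covers blood. Expression was measured by Drop-seq, in which single cells are caught in droplets with barcoded beads and each transcript is counted with its cell. All mice were C57BL/6J. The main groups were male mice of 8 to 10 weeks, with 4 brain libraries each from day 2 after sham surgery, day 2 after stroke and day 14 after stroke, and stroke was made by a transient block of the middle cerebral artery. They held 3278 dendritic cells, 61 to 86 per sham library, 163 to 414 per day 2 library and 371 to 537 per day 14 library. The remaining 470 came from 6 libraries of mice of 17 to 20 months: male sham, female sham, male stroke and 2 female stroke libraries at day 2, and 1 female stroke library at day 14. A library pooled 4 to 5 hemispheres, so a replicate is a pool of animals and a p-value measures the spread between pools. All sham libraries are of day 2, so for day 14 against sham the time since surgery cannot be told apart from stroke. The sorted mix of cells with high CD45, microglia and endothelial cells sets what a share of all cells can show.

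Dendritic cells take up antigen, cut it and present it on MHC class II to T cells. The conventional type 1 cells (cDC1) present antigen of dead cells to CD8 T cells, the conventional type 2 cells (cDC2) mainly prime CD4 T cells, and plasmacytoid cells make interferon. Conventional cells of any tissue can mature, take up the chemokine receptor Ccr7 and move to lymph nodes. The healthy brain holds few of them, mostly in the meninges and choroid plexus, and more enter from the blood after injury.

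The label was set beside 3 markers in the pooled cells of the 12 young libraries, in CPM, counts scaled to a common library size. The class was annotated from the same data, so these values describe it and are no independent check. Flt3, the receptor for the growth factor that dendritic cells depend on, stood at 191 CPM in the class DC, against 5.01 in MdC, a class with monocyte and macrophage markers, and 0.60 in microglia. Cd74, the invariant chain of MHC class II, stood at 23798 CPM against 2610 in MdC, and H2-Aa, a chain of MHC class II, at 12025 against 975. B cells, which also present antigen, held Cd74 at 16424 and H2-Aa at 4142 CPM. Other cell types' markers were also summed in the dendritic cells of each library. The 6 T cell markers summed to 0 CPM in every sham library, 0 to 5.97 at day 2 and 6.04 to 13.4 at day 14, against 5945 in T cells. The border macrophage markers summed to 331 to 689 CPM in sham, 83.0 to 124 at day 2 and 26.2 to 101 at day 14, against 11614 in the class BAM. The neutrophil markers summed to 0 to 337 CPM in sham, 17.6 to 41.4 at day 2 and 5.84 to 16.9 at day 14, against 192769 in their own class. The monocyte and macrophage markers summed to 6200 to 7420, 4281 to 9578 and 4796 to 6863 CPM, against 38984 in MdC. The B cell markers summed to 125 to 224 CPM in sham, 65.8 to 100.0 at day 2 and 106 to 330 at day 14, against 13852 in B cells, so day 2 lay below both other groups without overlap. The microglia markers summed to 141 to 566, 167 to 409 and 176 to 682 CPM, against 18103 in microglia. The endothelial markers summed to at most 51.8, 29.1 and 131 CPM, and the NK cell markers to at most 28.4, 11.2 and 18.7. The innate lymphoid markers summed to 40.3 to 216, 63.3 to 131 and 58.1 to 92.6 CPM. The part of these cells or of their free RNA in the differences below was not tested.

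Depth differed between the groups. The summed counts of dendritic cells were 29892 to 70236 per sham library and 189924 to 694901 per stroke library, and no pair of libraries shared more than 3 cell barcodes. The libraries also formed 2 sets by the median percent of mitochondrial counts over all their cells: 5 libraries (sham replicate 1 and replicates 1 and 2 of day 2 and of day 14) lay at 0.235% to 0.559% and the other 7 at 1.67% to 3.38%. Day 2 and day 14 have 2 libraries in each set, so values within the sets are given below.

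The authors' annotation divides the class into 9 clusters, DC1 to DC9, which were named here by marker lists. A cluster's leading genes describe it and are not a result, since the clusters were drawn from the same genes. DC2 (615 young cells) was cDC1-like: Gcsam, Xcr1, the chemokine receptor of cDC1, and Clec9a, a receptor for dead cells, led it, and the cDC1 list averaged 8.41 on the log2(CPM + 1) scale. DC7 (134 cells) was cDC2-like, with the lectins Mgl2 and Clec4b1 and a cDC2 list at 7.97. DC5 (339 cells) was like mature migratory cells, with the actin bundler Fscn1, Nudt17, Cacnb3 and Apol7c in the lead and a migratory list at 9.90. DC8 (111 cells) was like plasmacytoid cells, with Ly6d, Klk1, Pacsin1 and Ccr9 and a plasmacytoid list at 9.68. The other 5 keep their numbers.

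DC1, the largest with 833 young cells, was led by Epcam, Cd72, Siglece, Ltb and H2-Oa, and had the highest MHC class II list of the 9, at 10.99. DC3 (572 cells) was led by F13a1, Pi16, Tppp3 and Timp1, an inhibitor of matrix proteases. Its cDC2 list stood at 7.51, but no gene of that list was among its top 10 and F13a1 is on the border macrophage list, so it has no cell type name here. DC6 (232 cells) was led by interferon-induced genes, among them Cxcl11, Cxcl10, Ifit3, Rsad2 and Cmpk2, and its interferon list averaged 9.28. DC9 (61 cells) was led by Pclaf, Rad51ap1 and Top2a, genes of DNA replication and division, with a cDC1 list at 8.01. DC4 (381 cells) was led by Ms4a7, Msr1, Apoe and Maf, genes of macrophages, its monocyte and macrophage list stood at 8.69, and its median of 262 counts per cell was 0.408 of the median of its own libraries. The annotation counts DC4 as dendritic, and the shares and the fits over all dendritic cells were also computed without it.

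**Figure D1:**
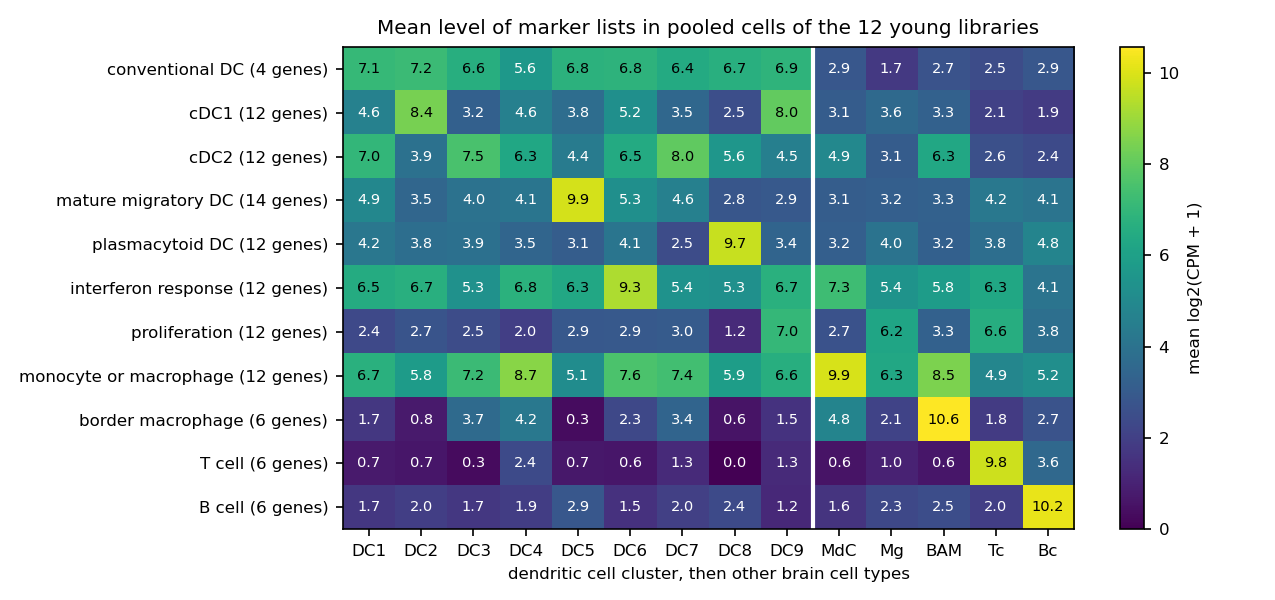
Mean level of each marker list, as log2(CPM + 1) over the pooled cells of the 12 young libraries, in the 9 dendritic clusters and in 5 other brain classes. The cDC1 list is highest in DC2 at 8.41, the migratory list in DC5 at 9.90, the plasmacytoid list in DC8 at 9.68 and the interferon list in DC6 at 9.28, while the monocyte or macrophage list reaches 8.69 in DC4.

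Dendritic cells were 1.88, 1.53, 2.00 and 2.26% of all cells in the 4 sham libraries. At day 2 after stroke they were 11.7, 10.1, 10.6 and 3.63%, and at day 14 they were 12.4, 16.4, 13.9 and 10.5%. Every stroke library lay above every sham library, and day 2 and day 14 overlapped. Counts of cells were compared with edgeR's quasi-likelihood test, with Benjamini-Hochberg adjustment across the cell types or clusters. The share rose from sham to day 2 by 2.23 on the log2 scale (SE 0.524, edgeR adjusted p = 0.00153) and was above sham at day 14 by 2.79 (SE 0.535, edgeR adjusted p = 0.000128). Between day 2 and day 14 the log2 difference was 0.56 (SE 0.50, edgeR adjusted p = 0.468). Without DC4 these 3 log2 differences were 2.44, 2.98 and 0.54, and without replicate 4 of day 2 the last was 0.30. In cells of at least 800 counts the first was 1.14 (edgeR adjusted p = 0.0499). The 2 comparisons with sham share the sham libraries.

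Among leukocytes other than microglia, which leaves out the sorted microglia and endothelial cells, dendritic cells were 13.7, 9.61, 9.81 and 22.3% in sham, 16.2, 15.6, 12.8 and 8.20% at day 2, and 27.0, 31.9, 22.2 and 24.9% at day 14. On this base day 14 lay above day 2 without overlap, from 13.2% ± 3.64 to 26.5% ± 4.07 (SD, n = 4 each), by 1.00 on the log2 scale (SE 0.354, edgeR adjusted p = 0.0229). An exact two-sided permutation test gave p = 0.0286, the smallest that 4 against 4 libraries allow. Day 2 and sham did not differ on this base beyond their spread, with a log2 difference of -0.062 (edgeR adjusted p = 0.864). Day 14 was above sham by 0.94 (edgeR adjusted p = 0.0275), with ranges that overlap (exact permutation test p = 0.0571). Without DC4 day 14 was above day 2 by 0.99 (edgeR adjusted p = 0.014).

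Within the dendritic cells, DC3 held 21.5, 9.72, 4.92 and 6.98% of the cells of the sham libraries. It held 30.9, 35.2, 34.3 and 44.2% at day 2 and 5.93, 3.93, 6.74 and 6.15% at day 14. Day 2 lay above both other groups in every library. The share rose by 1.75 on the log2 scale from sham to day 2 (edgeR adjusted p = 0.00563) and fell by 2.66 from day 2 to day 14 (SE 0.463, edgeR adjusted p = 0.000153). It was the only one of 9 clusters to pass the test between day 2 and day 14. In the set of libraries with low mitochondrial counts its mean went from 33.1 to 4.93%, and in the other set from 39.3 to 6.44%, with no overlap in either. With DC4 left out of the total, DC3 rose by 1.57 and fell by 2.62, and it was again the only cluster to pass between the stroke times.

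DC6 and DC7 separated sham from both stroke times. No cell of DC6 was seen among 284 sham dendritic cells, a count of 0 that allows a share of up to 1.06% (counting error only). The stroke libraries held 106 DC6 cells at day 2, at 7.97, 4.73, 9.54 and 13.5%, and 126 at day 14, at 8.09, 7.62, 7.82 and 6.33%. Both rises passed the test (edgeR adjusted p = 0.000195 and 0.000336). DC7, the cDC2-like cluster, made up 29.2, 41.7, 19.7 and 15.1% in sham, 0.966, 0, 1.91 and 5.52% at day 2, and 6.20, 0.693, 1.89 and 1.30% at day 14. It fell by 3.84 on the log2 scale from sham to day 2 (SE 0.82, edgeR adjusted p = 0.000771) and was below sham by 3.39 at day 14 (SE 0.77, edgeR adjusted p = 0.00144). These are shares of dendritic cells, whose own share of all cells was higher after stroke. Of all cells, DC7 was 0.548, 0.636, 0.394 and 0.342% in sham and 0.113, 0, 0.202 and 0.200% at day 2. At day 14 it was 0.771, 0.113, 0.263 and 0.137% of all cells, which overlaps sham.

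The other 6 clusters did not pass the test in any of the 3 comparisons. DC1 held 18.3% ± 7.76 in sham, 15.5% ± 6.56 at day 2 and 33.6% ± 6.98 at day 14 (SD, n = 4). The day 14 libraries did not overlap the day 2 libraries, with a log2 difference of 1.10 (SE 0.442) and an edgeR adjusted p of 0.0996. The cDC1-like DC2 stood at 11.5% ± 4.03, 18.3% ± 1.96 and 19.5% ± 10.2, and replicate 1 of day 14 was the low library at 4.31%. The migratory-like DC5 stood at 5.42% ± 3.41, 7.32% ± 3.57 and 13.8% ± 4.95 (edgeR adjusted p = 0.249 between day 2 and day 14). DC4 averaged 20.3, 8.69 and 11.2%, the plasmacytoid-like DC8 5.97, 1.94 and 3.98%, and DC9 1.34, 1.11 and 2.25%. The clusters DC1, DC3, DC6 and DC7, whose cDC2 lists were the highest, together held 55.5% ± 8.94 in sham, 62.7% ± 6.95 at day 2 and 49.3% ± 10.0 at day 14, ranges that overlap between all 3 groups. The exact permutation p of each single share cannot go below 0.0286. Adjusted over the clusters, the smallest it reached was 0.0857 with sham and 0.129 between the stroke times, so calls rest on the fit. The authors drew the clusters from the same genes, and a sham library holds only 61 to 86 dendritic cells.

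**Figure D2:**
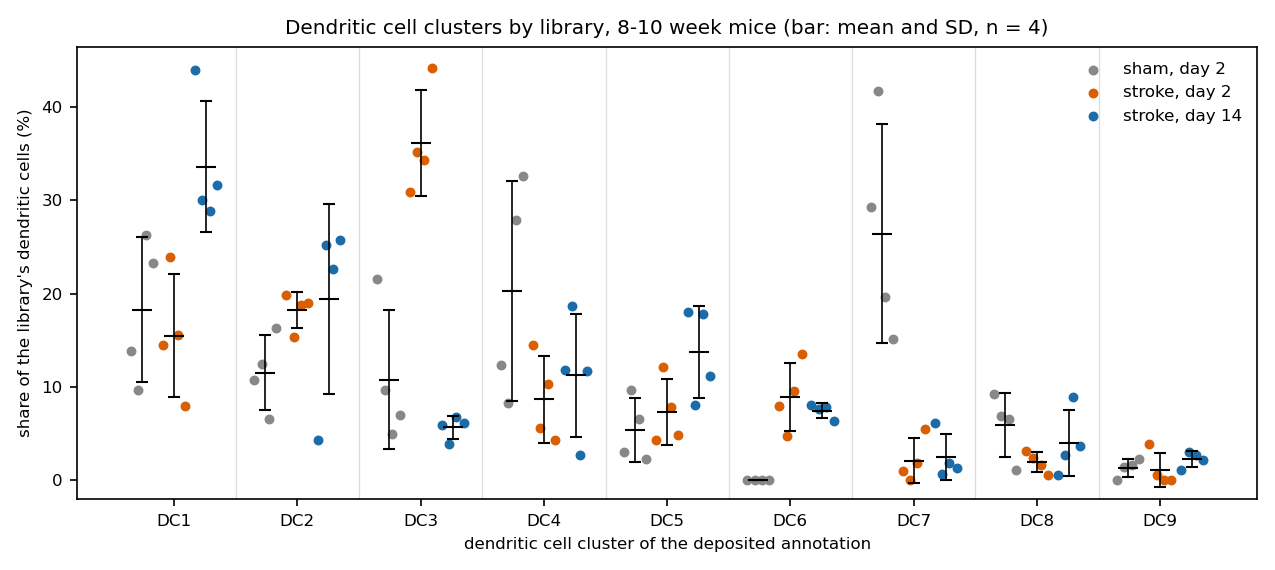
Share of each library's dendritic cells (%) in each of the 9 clusters, 1 point per library of the 12 young libraries, with the mean and SD of the 4 libraries of a group. DC3 lies at 30.9 to 44.2% at day 2 and 3.93 to 6.74% at day 14, DC6 is at 0 in sham alone, and DC7 is at 15.1 to 41.7% in sham and at most 6.20% after stroke.

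For expression, the counts of all dendritic cells were summed per library and fitted with edgeR's quasi-likelihood test over 4365 genes. Genes with an adjusted p under 0.05 are those the text says rose, fell or were called. Levels per young library are CPM after TMM scaling. Between day 2 and day 14 the test called 39 genes (0.893%), of which 19 were higher at day 14 (0.435%) and 20 lower (0.458%), beside a median log2 change of 0.03 over all genes. Same-numbered libraries of day 2 and day 14 deviated together in part (r from 0.109 to 0.738). A fit with that number as a block called 111 genes (2.54%), with all 39 among them. In the stroke groups the number goes with the mitochondrial set, which as a term called 109 genes. The block also spans sham, whose numbers did not pair with those of stroke. In 436 genes (9.99%) the libraries of the 2 times did not overlap, with 201 higher at day 14 (4.6%) and 235 lower (5.38%).

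Of the 12 genes named as higher at day 14, 8 are highest in the migratory-like cluster DC5, as are none of the 12 named as lower and 579 of all 4365 tested genes (13.3%). Ccl5, a chemokine for T cells, stood at 154, 497, 700 and 109 CPM at day 2 and 3103, 1882, 2404 and 1749 at day 14. The sham libraries overlapped both, at 552, 2173, 1174 and 524 CPM. Ccl5 rose by 2.64 on the log2 scale (SE 0.577, edgeR adjusted p = 0.0489), and in pooled cells it was at 10080 CPM in DC5 against 873 in DC6, its next cluster. T cells and NK cells also held Ccl5, at 3460 and 5459 CPM, while their markers summed to at most 13.4 and 18.7 CPM in the dendritic cells of a day 14 library. Nudt17, on the migratory list, stood at 13.2, 20.3, 19.6 and 6.05 CPM at day 2 and 90.8, 84.8, 145 and 132 at day 14 (log2 change 2.85, SE 0.429, edgeR adjusted p = 0.0155). Its libraries did not overlap between the times, and it was at 567 CPM in DC5 and at most 1.20 in any other cluster.

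Serpinb9, an inhibitor of granzyme B, went from 26.5, 35.5, 31.8 and 0 CPM to 162, 160, 251 and 146 (log2 change 2.84, SE 0.472, edgeR adjusted p = 0.0197). Mmp25, a membrane-bound matrix protease, went from 11.0, 30.4, 12.2 and 30.3 CPM to 81.1, 81.5, 195 and 381 (log2 change 3.25, SE 0.635, edgeR adjusted p = 0.0277). Cd200, a ligand that restrains myeloid cells, went from 6.62, 30.4, 7.35 and 0 CPM to 85.0, 62.0, 110 and 71.2 (log2 change 2.97, edgeR adjusted p = 0.0295). Among the dendritic clusters all 3 were highest in DC5, at 906, 714 and 353 CPM. Another large brain class held Cd200 at over 10 times the dendritic level, so Cd200 is given here only as a gene of a list. The part of such cells or their free RNA in its rise was not tested. Of the 13 measured genes of the migratory list, 2 rose (Ccl5 and Nudt17, 4 with the replicate block) and the other 11 passed in neither direction, with a median log2 change of 1.05. Ccr7, the lymph node homing receptor that is at 3250 CPM in DC5, was at 174, 259, 414 and 321 CPM at day 2 and 896, 251, 735 and 438 at day 14, groups that overlap (log2 change 1.00, edgeR adjusted p = 0.490). Fscn1 was at 44.1, 147, 41.6 and 6.05 CPM and then 185, 173, 621 and 185 (log2 change 2.31, edgeR adjusted p = 0.128, and 0.0245 with the replicate block).

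Cytokines and chemokines that act on T cells were measured through a list of 16 genes, 11 of which entered the fit. Cxcl9, which draws T cells that carry Cxcr3, had no count in sham. It was at 6.62, 0, 4.90 and 18.2 CPM at day 2 and 102, 78.3, 61.2 and 189 at day 14 (log2 change 3.90, SE 0.608, edgeR adjusted p = 0.0232). Cxcl9 was at 166 CPM in DC6, 152 in DC4 and 129 in DC9, and at 53.6 in DC5. Ccl5 and Cxcl9 were the 2 called genes of the list, 3 with the replicate block. Il12b, the shared subunit of interleukins 12 and 23, had no count in sham and was at 0, 0, 29.4 and 0 CPM at day 2 and 114, 94.6, 99.6 and 267 at day 14. The groups did not overlap, and the log2 change of 3.88 had an adjusted p of 0.0623 (edgeR) and of 0.0114 with the replicate block. In pooled cells Il12b was at 486 CPM in DC5 and at most 37.7 in the other clusters.

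The cDC1 list had 10 measured genes, of which 1, Itgae, rose. Itgae encodes the integrin chain CD103 and stood at 17.7, 25.4, 14.7 and 12.1 CPM at day 2 and 34.8, 94.6, 144 and 150 at day 14 (log2 change 2.57, SE 0.485, edgeR adjusted p = 0.0262). Sham libraries lay at 29.8, 95.3, 104 and 123 CPM, which overlaps day 14 and lies above day 2. Itgae was highest in the cDC1-like DC2 at 216 CPM and in DC9 at 197.

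Of the class I-like H2-Q genes, H2-Q4, H2-Q6 and H2-Q7 rose. They stand in a list of 14 class I-like and interferon-inducible genes drawn up after the values were seen, of which 4 rose, 2 fell and 8 did not pass, with a median log2 change of 0.85. H2-Q7 stood at 113, 137, 157 and 30.3 CPM at day 2 and 471, 499, 401 and 438 at day 14 (log2 change 2.01, SE 0.376, edgeR adjusted p = 0.0262). H2-Q6 rose by 2.58 (edgeR adjusted p = 0.0307) and H2-Q4 by 1.77 (edgeR adjusted p = 0.0232), with no overlap. These genes are of 1 family, with H2-Q6 and H2-Q7 near-identical, so the split of reads among them is uncertain and they are not independent members. Abcg1, which exports cholesterol from cells, went from 50.8, 35.5, 73.5 and 30.3 CPM to 168, 127, 144 and 338 (log2 change 1.96, SE 0.398, edgeR adjusted p = 0.0307). Egr1, an immediate early gene, went from 33.1, 35.5, 24.5 and 36.3 CPM to 307, 179, 88.3 and 85.5 (log2 change 2.36, SE 0.479, edgeR adjusted p = 0.0307), and its sham libraries lay at 149, 419, 484 and 216. Slamf7, a receptor of the SLAM family, went from 137, 167, 240 and 200 CPM to 477, 372, 446 and 552 (log2 change 1.31, SE 0.233, edgeR adjusted p = 0.0239), and the sham libraries lay at 507, 362, 311 and 463. AW112010 also rose (log2 change 1.93, edgeR adjusted p = 0.0425).

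Among the genes that were lower at day 14, Ifitm1 had the highest level. It belongs to the interferon-induced transmembrane proteins and is on the cDC2 list. Ifitm1 stood at 776, 229, 69.1 and 154 CPM in sham, 5524, 6688, 7430 and 8997 at day 2 and 1333, 1732, 992 and 986 at day 14. It fell by 2.51 on the log2 scale from day 2 to day 14 (SE 0.486, edgeR adjusted p = 0.0277). The 3 groups did not overlap at all. In pooled cells it was at 6535 CPM in DC3, 4534 in DC6, 2715 in DC1 and 2247 in DC2. Ifitm2, of the same family, fell by 1.40 (edgeR adjusted p = 0.0425), and any sharing of reads between genes of the family was not tested.

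Timp1 was counted in no sham library, stood at 70.6, 117, 95.5 and 176 CPM at day 2 and at 11.6, 13.05, 11.4 and 17.8 at day 14 (log2 change -3.05, SE 0.381, edgeR adjusted p = 0.0132). Tgfbi, a secreted matrix protein, stood at 298, 133, 104 and 123 CPM in sham, 744, 472, 958 and 902 at day 2 and 282, 144, 199 and 207 at day 14 (log2 change -1.88, SE 0.314, edgeR adjusted p = 0.0197). Both were high at day 2 alone. Ddit4, a stress-induced inhibitor of mTORC1, went from 371, 619, 448 and 811 CPM to 191, 130, 74.0 and 118 (log2 change -2.12, SE 0.372, edgeR adjusted p = 0.0232). Mt1, a metal-binding metallothionein, went from 457, 892, 607 and 745 CPM to 257, 206, 96.8 and 121 (log2 change -1.98, SE 0.362, edgeR adjusted p = 0.0248), and its sham libraries lay at 940, 1658, 898 and 648. Galnt6, Gcsh and Stn1 also fell, by 2.16, 2.22 and 1.57 on the log2 scale (edgeR adjusted p = 0.0197, 0.0248 and 0.0248). Timp1, Tgfbi and Ddit4 were highest or near highest in DC3, at 124, 849 and 555 CPM.

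Of the genes of cholesterol synthesis, Cyp51, Msmo1, Hmgcs1 and Fdps fell. Cyp51, a demethylase of that pathway, stood at 174, 112, 137 and 133 CPM at day 2 and 44.4, 19.6, 31.3 and 46.3 at day 14 (log2 change -1.97, SE 0.326, edgeR adjusted p = 0.0197). Msmo1, the methylsterol oxidase, went from 104, 76.1, 125 and 157 CPM to 5.79, 22.8, 24.2 and 32.1 (log2 change -2.46, SE 0.476, edgeR adjusted p = 0.0277). Hmgcs1, which makes the substrate of the rate-limiting reductase, went from 117, 60.8, 115 and 72.7 CPM to 21.2, 22.8, 28.5 and 7.12 (log2 change -2.14, SE 0.469, edgeR adjusted p = 0.0489). Fdps, which makes farnesyl diphosphate, fell by 1.74 (SE 0.336, edgeR adjusted p = 0.0277). None of these 4 overlapped between the times. In a list of 21 genes of sterol synthesis and uptake, drawn up after these values were seen, 10 were measured, of which these 4 passed (5 with the replicate block) and 6 did not, with a median of -1.51 and all 10 negative. Sham levels of Cyp51 and Msmo1, at 34.5 to 119 and 38.1 to 207 CPM, overlapped those of day 2.

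For antigen presentation no change was detected between the times: none of the 12 MHC class II genes passed, with a median log2 change of 0.07. Over all tested genes 0.893% passed, so few or no calls would fall in a list of this size. A count of 0 is therefore no result about a list, and a small change could be missed. The same held for the 9 measured genes of the conventional core list (median 0.15), the 5 of the plasmacytoid list (median 0.80), the 10 of the lysosome and lipid list (median -0.29) and the 2 of the proliferation list. Of 9 glycolysis and hypoxia genes none passed, with a median of -0.72, and 3 were lower with the replicate block. Of 9 genes for costimulation and checkpoints 1 rose, Cd200. Of 11 cDC2 genes 1 fell, Ifitm1, with a median of -0.37.

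**Figure D3:**
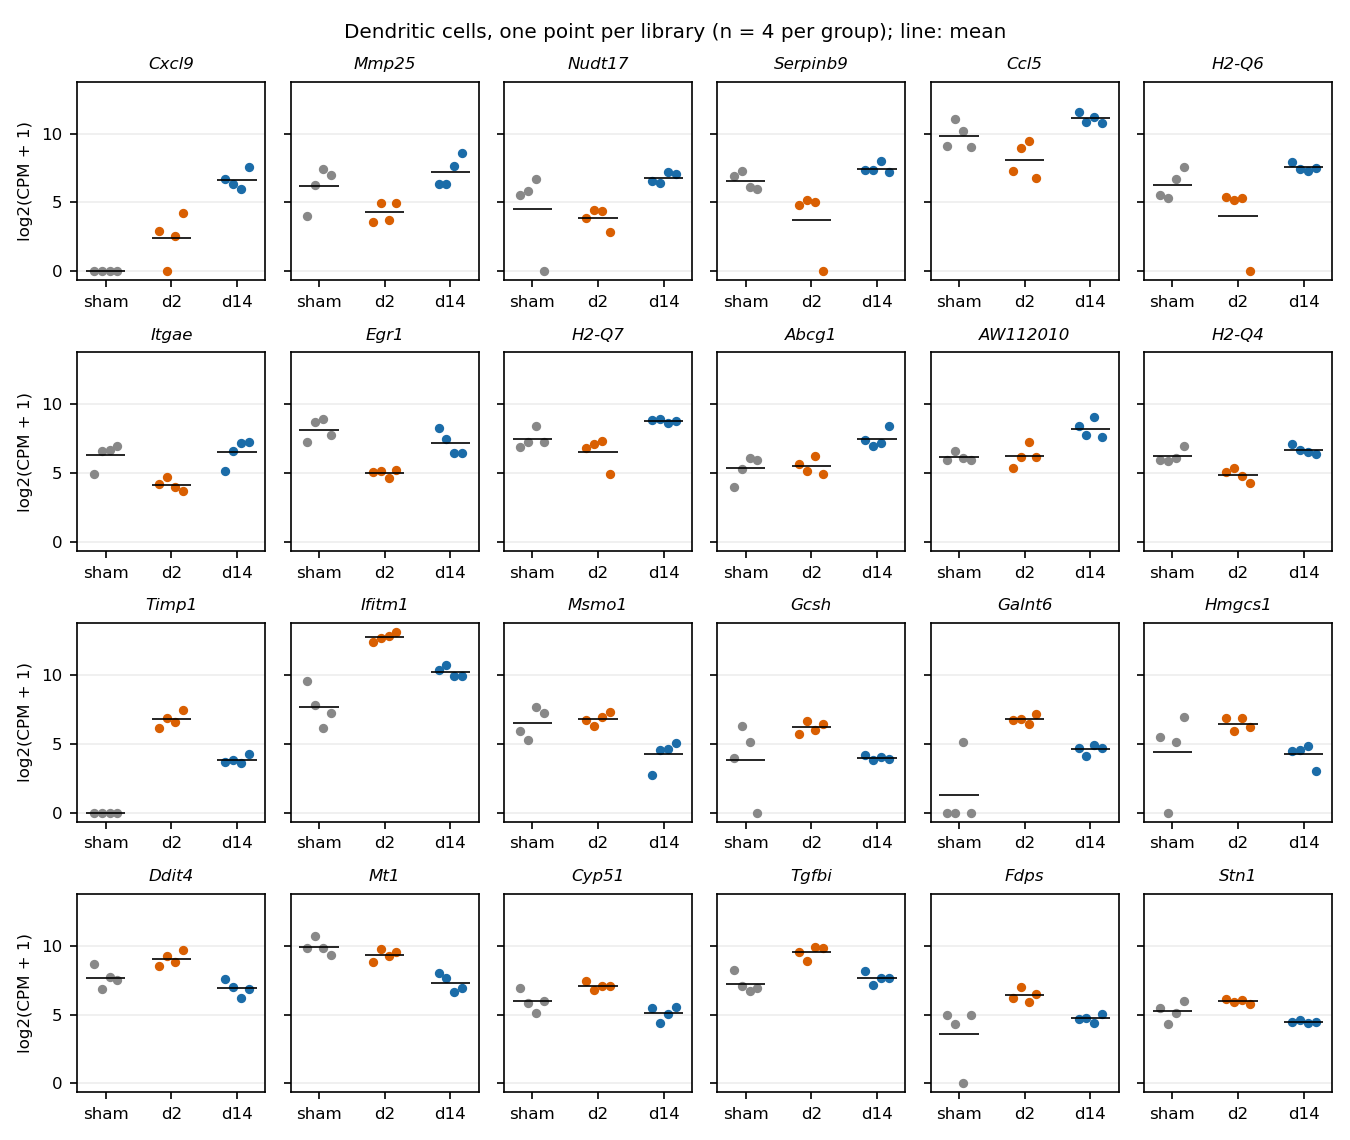
Level of 24 called genes in the dendritic cells of each library, as log2(CPM + 1), for sham, day 2 and day 14 after stroke (1 point per library, 4 per group, line at the mean). The upper 12 genes are higher at day 14 than at day 2 and the lower 12 are lower, with no overlap between those 2 groups, while the sham points of Ccl5 and Itgae lie near or above day 2.

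Calls between the stroke times were recomputed with clusters and libraries left out. With DC3 left out of the sums, 34 of the 39 genes could be tested, all 34 kept their direction, and the median size of their log2 change went from 1.94 to 1.78. Only 1 of 3512 genes was then called, Ifitm1 (log2 change -2.23, edgeR adjusted p = 0.00811). Without DC5, 33 of the 39 could be tested, all 33 kept their direction, and the median size went from 1.93 to 1.74. Then 22 genes were called, all among the 39, with 8 higher at day 14 and 14 lower. Without DC4, 46 were called, 38 of them shared. Within the low mitochondrial set of libraries 0 genes were called by edgeR (350 at an unadjusted p under 0.05) and within the other set 32, 11 of them among the 39. All 39 had the same direction in both sets, which are parts of the libraries that made the calls. The call count fell to 0 without replicate 4 of day 2 (365 genes at an unadjusted p under 0.05) or without replicate 3 of day 14 (523). It was 1 without replicate 1 of day 2, 16 without its replicate 3, 11, 24 and 9 without replicates 1, 2 and 4 of day 14, and 25 without sham replicate 4. Of the 24 named genes, Timp1 lost its call in the fewest of the 12 fits that each leave out 1 library (2), and Ccl5, Abcg1, Hmgcs1 and AW112010 in the most (10). DESeq2 called 116 genes, with all 39 among them.

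Within single clusters, 4 held enough cells in enough libraries for a test. In the cDC1-like DC2, 3 of 1578 genes were called (0.19%), all lower at day 14: Ifitm1, Cyp51 and Hmgcs1. The replicate block called 56 in DC2, of which 35 were higher and 21 lower, and DESeq2 called 15, with 7 higher and 8 lower, so the direction of the calls differs between these fits. Ifitm1 in DC2 lay at 4898 to 9744 CPM in the 4 day 2 libraries and 583 to 1233 in the 3 day 14 libraries (log2 change -3.05, SE 0.385, edgeR adjusted p = 0.0140). Cyp51 in DC2 went from 252 ± 16.3 (SD, n = 4) to 34.6 ± 7.77 CPM (n = 3), a fall of 2.84 on the log2 scale (SE 0.358, edgeR adjusted p = 0.0140 in the fit over all genes). Hmgcs1 in DC2 fell by 2.76 (SE 0.412, edgeR adjusted p = 0.0369).

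In DC6, 4 of 903 genes were called (0.443%), 2 in each direction (0.221%). Slamf7 and Cst3, an inhibitor of cysteine proteases that dendritic cells express strongly, rose by 2.46 and 1.27 (edgeR adjusted p = 0.0250 and 0.0358). Cst3 in DC6 lay at 3305 to 4502 CPM in 3 libraries of day 2 and 7949 to 10124 in 4 of day 14. Tgfbi and Cstb fell by 2.32 and 1.66 (edgeR adjusted p = 0.0139 and 0.0358), and Tgfbi went from 1595 to 2262 CPM down to 315 to 428. In DC1 and DC3 edgeR called 0 of 2335 and 0 of 1737 genes (124 and 133 at an unadjusted p under 0.05), and DESeq2 called 2 in each. Ifitm1 had a log2 change of -1.97 in DC1 (edgeR adjusted p = 0.0753) and -2.24 in DC3 (edgeR adjusted p = 0.258). With the replicate block both passed (edgeR adjusted p = 3.59e-12 in DC1 and 0.00137 in DC3). The counts with the block were 63 in DC1 (47 higher, 16 lower), 1 in DC3 and 50 in DC6 (33 higher, 17 lower). In every tested cluster that fit leaves few libraries beyond its terms. Its p-values there rest largely on a spread shared across genes. With single libraries left out, DC2 had 0 to 4 calls and DC6 0 to 3.

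Against sham, 8 of the 11 measured genes of the interferon list were higher at day 14 and 2 at day 2. At day 14 the test called 67 of 4365 genes (1.53%), 45 higher (1.03%) and 22 lower (0.504%). At day 2 it called 44 (1.01%), 30 higher (0.687%) and 14 lower (0.321%). The median log2 changes of those 11, from a list of 12, were 2.87 at day 14 and 1.91 at day 2, beside 0.05 over all genes in each. The fit was repeated in cells of at least 800 counts, of which sham replicates 1 and 2 held 35 and 37. Sham replicates 3 and 4 held 10 each and stayed out, so this fit had fewer sham libraries as well as fewer cells. None of the 8 and 2 calls was kept in it (edgeR called 0 of the 11 at either time), with medians of 3.19 and 2.40 on the log2 scale. Between day 2 and day 14, 1 of the 11 passed (3 with the replicate block) and 10 did not, with a median log2 change of 0.80 and all 11 positive.

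The promoters of 3 of these genes are shown because they carry, in the bases before the start, the repeat GAAANNGAAA to which interferon-activated factors are known to bind. Each line gives 120 bases, from 160 to 41 before the start of the gene on its own strand, from RefSeq's promoter table of the mouse build GRCm38.p6, with the repeat on either strand in capitals, overlapping copies joined. The windows are chr19:34583369-34583488 (plus strand) for Ifit3, chr4:156200859-156200978 (minus strand) for Isg15 and chr12:26456493-26456612 (minus strand) for Rsad2.
Ifit3: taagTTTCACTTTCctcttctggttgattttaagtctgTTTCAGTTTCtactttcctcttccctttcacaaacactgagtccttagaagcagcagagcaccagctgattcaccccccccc
Isg15: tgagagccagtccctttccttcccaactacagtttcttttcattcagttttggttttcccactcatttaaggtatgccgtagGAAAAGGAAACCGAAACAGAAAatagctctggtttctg
Rsad2: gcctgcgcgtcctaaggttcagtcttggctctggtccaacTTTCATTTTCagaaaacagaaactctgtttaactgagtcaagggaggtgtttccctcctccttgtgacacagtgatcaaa
The windows hold 2, 3 and 1 copies. Of the 12 list genes 9 had a window of 300 bases (250 before to 50 after the start) in the table, and 4 of the 9 held a copy, these 3 and Ifit1. Of all 32851 windows of that length 1131 did (3.44%). A match is a description of the sequence and not a measured binding site.

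Isg15, the ubiquitin-like protein that interferon induces, stood at 149, 248, 276 and 247 CPM in sham, 501, 416, 463 and 466 at day 2 and 1081, 848, 567 and 577 at day 14. The 3 groups did not overlap, and day 14 was above sham by 1.77 on the log2 scale (SE 0.285, edgeR adjusted p = 0.00908). Ifit3, which limits viral RNA, had 2 counts in all sham libraries together. Its levels were 97.1, 45.6, 152 and 109 CPM at day 2 and 305, 183, 168 and 78.3 at day 14 (edgeR adjusted p = 0.0311 at day 14 against sham). Rsad2, the antiviral enzyme viperin, had 1 sham count and was at 152, 55.8, 80.8 and 48.4 CPM at day 2 and 523, 228, 121 and 132 at day 14 (edgeR adjusted p = 0.0173 at day 14 against sham).

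Ifit2, Mx1, Usp18 and Oasl2 were also higher than sham at day 14 (edgeR adjusted p = 0.043, 0.0331, 0.00908 and 0.0102), and Usp18 and Oasl2 already at day 2 (edgeR adjusted p = 0.0361 and 0.0316). Ifit1, Irf7 and Ifi44 did not pass. Outside the list, Oasl1, Ly6i and Cxcl9 had no sham count. Taking a floor of 3 counts over the sham group, Oasl1 was at least 5.37-fold higher at day 14, Ly6i at least 4.76-fold and Cxcl9 at least 5.84-fold (edgeR adjusted p = 0.0298, 0.0388 and 0.043). In pooled cells these genes were highest in DC6, where Ifit3 stood at 1021 CPM, Isg15 at 2169 and Rsad2 at 1196, the cluster of which no cell was seen in sham. Cells of DC6 were clustered on such genes, so this is a description.

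**Figure D4:**
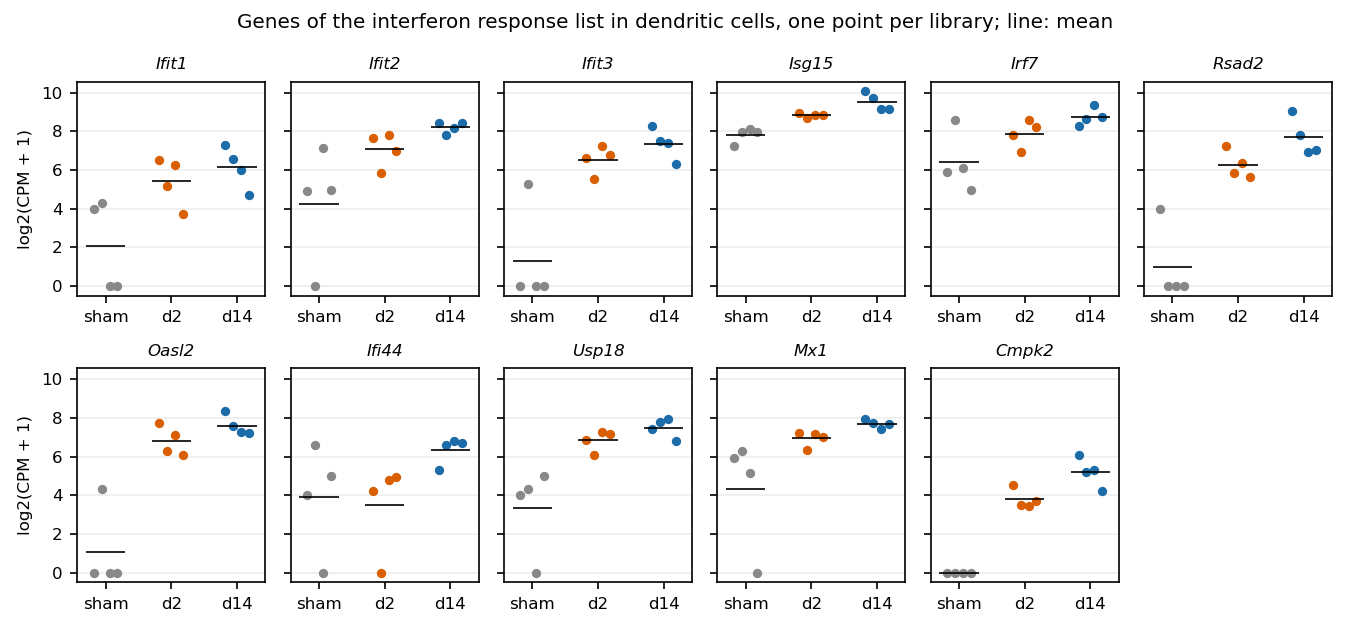
Level of 11 genes of the interferon list in the dendritic cells of each library, as log2(CPM + 1) (1 point per library, 4 per group, line at the mean). Isg15 separates sham from both stroke times without overlap, at 149 to 276 CPM in sham and 567 to 1081 at day 14, while Rsad2 and Oasl2 have a single sham library above 0.

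Several other genes were higher at day 2 than in sham. Ifitm1 rose by 4.45 on the log2 scale (SE 0.547, edgeR adjusted p = 0.0023), Ifitm2 by 1.86 (edgeR adjusted p = 0.0126), Ifitm3 by 1.82 (edgeR adjusted p = 0.0138) and Tgfbi by 2.13 (edgeR adjusted p = 0.0126). Timp1, with no sham count, was at least 6.17-fold higher, against the same floor (edgeR adjusted p = 0.0126). Ifi30, a thiol reductase of antigen processing, stood at 865, 438, 311 and 463 CPM in sham and 2050, 1516, 2255 and 1175 at day 2. It rose by 1.72 (SE 0.335, edgeR adjusted p = 0.0237) and was the 1 called gene of the 12 in the MHC class II list. Galnt6 and Oasl2 had 1 sham count each, and at day 2 Galnt6 was at 88.2 to 145 CPM and Oasl2 at 66.6 to 212.

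Of the 11 measured cDC2 genes, 1 was lower than sham at day 2 (Clec4b1) and 1 higher (Ifitm1), with a median log2 change of -0.23. At day 14, 3 were lower (Mgl2, Clec4b1 and Clec4a2) and none was higher, with a median of -0.97. Ccl17, a chemokine for Ccr4, stood at 1089, 1430, 622 and 1203 CPM in sham, 79.4, 127, 83.3 and 194 at day 2 and 61.8, 91.3, 164 and 89.0 at day 14. It fell by 3.22 on the log2 scale at day 2 (SE 0.385, edgeR adjusted p = 0.0023) and was below sham by 3.41 at day 14 (SE 0.382, edgeR adjusted p = 0.000767). Ccl17 was at 1424 CPM in DC7 and at most 341 elsewhere. Mgl2, a galactose-binding lectin, stood at 895, 1944, 691 and 1049 CPM in sham, 26.5, 157, 90.6 and 484 at day 2 and 193, 97.9, 144 and 178 at day 14. Its log2 change from sham was -2.67 at day 2 (edgeR adjusted p = 0.066) and -2.91 at day 14 (SE 0.639, edgeR adjusted p = 0.0375). Clec4b1 was lower at both times, by 2.59 and 3.74 (edgeR adjusted p = 0.043 and 0.0074), and Clec4a2 passed at day 14, with a log2 change of -3.43 (edgeR adjusted p = 0.0074). The border macrophage markers summed to less in the stroke libraries too, with values above, and their part was not tested. The share of DC7 among dendritic cells fell in the same comparisons, and whether a DC7 cell changed was not tested, since DC7 held too few cells after stroke.

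Other genes lower than in sham had broader levels. Egr1 fell by 3.27 at day 2 (SE 0.517, edgeR adjusted p = 0.0106), and Cd302, a lectin receptor, by 1.86 (SE 0.34, edgeR adjusted p = 0.0176). Mt1 was below sham at day 14 by a log2 change of -2.62 (SE 0.376, edgeR adjusted p = 0.0074), and Sqle, the squalene epoxidase of cholesterol synthesis, went from 57.2 to 104 CPM in sham to 0 to 14.2 at day 14 (log2 change -3.15, edgeR adjusted p = 0.0298). Il4i1 and Relb, of the migratory list, were higher than sham at day 14 by 2.16 and 2.01 (edgeR adjusted p = 0.0258 and 0.0255), as was the lysosomal Cd63 by 2.16 (edgeR adjusted p = 0.0258). Among the dendritic clusters all 3 were highest in DC5. The other 11 measured genes of the migratory list did not pass against sham at day 14, and the median of its 13 was 1.21.

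The counts against sham moved when single libraries were left out. At day 2 leaving out sham replicates 1, 2, 3 and 4 gave 85, 16, 27 and 18 calls, and leaving out day 2 replicates 1 and 3 gave 26 and 23. At day 14 the sham replicates gave 37, 15, 36 and 20, and day 14 replicates 1, 2 and 3 gave 24, 37 and 27. Sham replicates 3 and 4 had too few cells of at least 800 counts and stayed out of the fit of such cells. In that fit edgeR called 0 genes at day 2 (527 at an unadjusted p under 0.05) and 7 at day 14, 2 higher and 5 lower. None of the calls against sham in the cDC2, migratory and MHC class II lists was kept in those cells. At day 14 the median log2 changes there were -1.28 for cDC2 and 1.61 for the migratory list, beside -0.97 and 1.21 in all cells. At day 2 they were -0.30 for cDC2 and 0.18 for MHC class II, beside -0.23 and 0.28.

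To see where the dendritic cells differ from the other antigen-presenting infiltrate, the change from day 2 to day 14 was set against that in MdC of the same libraries, with the library as a block and the difference as an interaction term. Of 7671 genes 149 differed (1.94%), 84 with a higher change in dendritic cells (1.1%) and 65 with a lower one (0.847%). The largest group among the lists was MHC class II, where 8 of 12 genes had a lower change in dendritic cells and none a higher one. H2-Aa stayed near its level in dendritic cells, at 13185 CPM at day 2 and 12806 at day 14, while in MdC it was at 445 to 926 CPM at day 2 and 1602 to 2702 at day 14. The difference of the log2 changes was -1.54 (SE 0.175, edgeR adjusted p = 4.8e-06). Cd74 was at 24512 and 27355 CPM in dendritic cells and at means of 1870 and 5681 in MdC (difference -1.39, SE 0.176, edgeR adjusted p = 1.95e-05).

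H2-Ab1 and H2-Eb1, the other class II chains, differed by -1.48 and -1.56, Ciita, the master regulator of class II, by -1.78 (edgeR adjusted p = 0.00202), and H2-DMb1, which helps to load peptide, by -1.24. H2-DMa and the protease Ctss differed by -0.70 and -0.72 (edgeR adjusted p = 0.0205 and 0.0181). In the fit of MdC alone, which called 145 of 8080 genes (1.79%), Cd74 and Ciita passed (log2 changes 1.60 and 2.38, edgeR adjusted p = 0.0426 and 0.0209), and H2-Aa, H2-Ab1 and H2-Eb1 did not (1.51, 1.62 and 1.58). Cd74 and H2-Aa were higher in dendritic cells at both times, but they mark the class, which was annotated from the same data. That level is therefore a description. The part of this choice of cells in the class II difference was not tested. Cd209a, a lectin on the cDC2 list, also rose in MdC, from a mean of 6.06 to 49.3 CPM (log2 change 2.90, edgeR adjusted p = 0.00761), and was at 577 and 695 CPM in dendritic cells. The part of dendritic cells or their free RNA within MdC in the class II difference was not tested. Leaving DC4 out of the dendritic cells left these 8 calls in place.

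Beyond the list, Serpinb6b, Tpx2, Spire1, Net1 and Pdlim4 had the most positive differences among the genes named by rule, from 2.78 to 5.78, and Cpq, Clec2i, Cd209a, Abcb1b and Chn2 the most negative, from -2.53 to -2.19. Serpinb6b, a granzyme inhibitor, was at means of 43.0 and 257 CPM in dendritic cells at day 2 and day 14 and at 0.844 and 0 in MdC. With every MdC library of day 14 at 0, its difference of 5.78 has no measured MdC change behind it. In dendritic cells alone its log2 change was 2.57 (SE 0.584, edgeR adjusted p = 0.0568). Socs2 and Tmem123 of the migratory list also had a higher change in dendritic cells, by 2.50 and 1.07 (edgeR adjusted p = 0.0243 and 0.0156). None of the 12 interferon genes differed by this test. The count was 81, 94 and 88 without replicates 1, 3 and 4 of day 2 and 241 without replicate 1 of day 14.

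**Figure D5:**
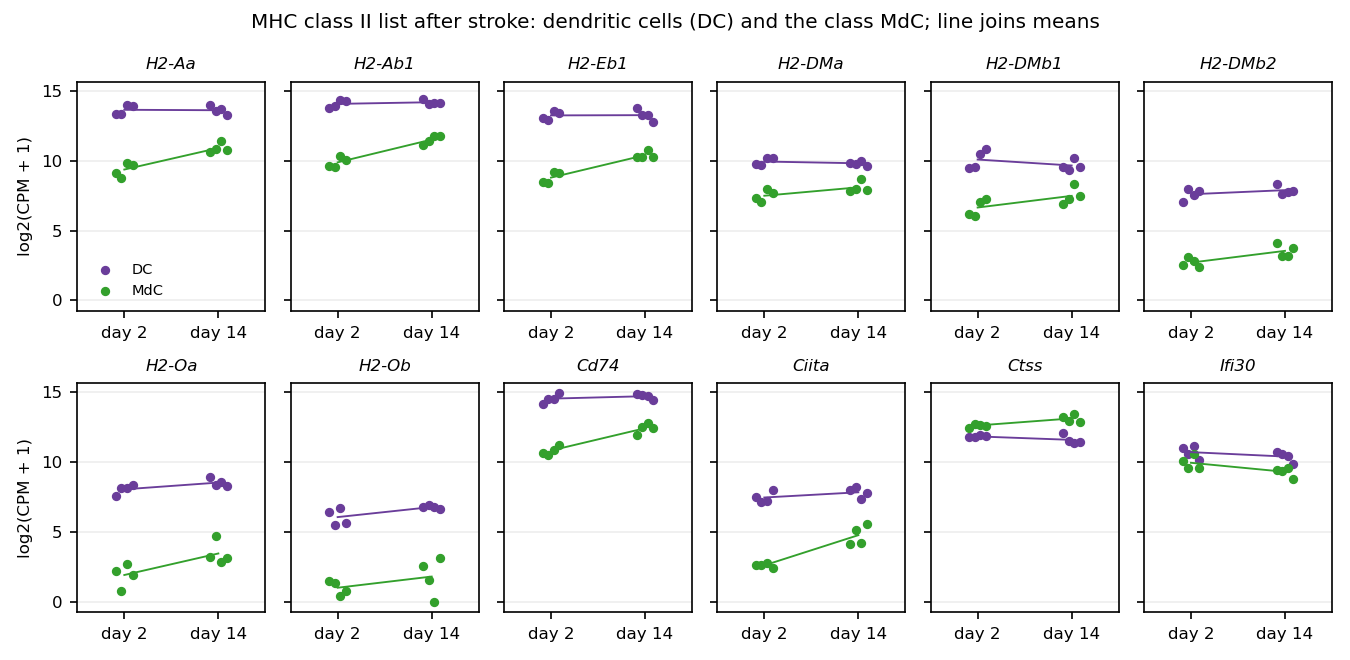
Level of the 12 genes of the MHC class II list after stroke, as log2(CPM + 1), in dendritic cells and in the class MdC of the same young libraries (1 point per library, 4 per time, lines joining the means). H2-Aa in MdC goes from 445 to 926 CPM at day 2 up to 1602 to 2702 at day 14, while the mean in dendritic cells is 13185 and then 12806.

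In mice of 17 to 20 months there were 1 or 2 libraries per group, so their values are given without a test. Their CPM are scaled to the library's dendritic counts without TMM, unlike the levels of the young libraries. DC3 held 0 of 8 dendritic cells in the male sham library (exact binomial 95% interval up to 36.9%) and 8.33% of 24 in the female one (1.03 to 27.0). At day 2 after stroke it held 52.9% (exact binomial 95% interval 35.1 to 70.2) in the male library and 27.5% (21.3 to 34.3) and 28.5% (20.7 to 37.3) in the female libraries, and at day 14 6.82% (2.54 to 14.3) in the female library. These intervals cover counting error only and do not compare the conditions. DC6 held no cell in either sham library (intervals up to 36.9% and 14.2%, which hold every stroke value) and 5.88, 9.33, 12.2 and 4.55% in the stroke libraries in that order. Ifitm1 was at 3140 and 341 CPM in the sham libraries, 10982, 6069 and 7303 at day 2 and 310 at day 14, and the male sham library rests on 8 cells. Ccl5 was at 0 and 522 CPM in sham, 119, 187 and 764 at day 2 and 1331 at day 14. Of the 12 genes named as higher at day 14 in young mice, 7 were above all 3 day 2 libraries in the day 14 library and 5 were within their range (Cxcl9, Mmp25, Nudt17, Serpinb9 and Egr1). Of the 12 named as lower, 8 were below all 3 and 4 were within the range (Cyp51, Hmgcs1, Fdps and Stn1). Against the 2 female day 2 libraries alone, 8 of the higher and 9 of the lower genes lay beyond the range in the same direction. The share over all genes was not computed, so these counts are a description. Nudt17 was at 17.4, 0 and 8.62 CPM at day 2 and 13.2 at day 14, and Cyp51 at 17.0, 78.7 and 33.9 and then 53.2.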

How the data were processed

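The deposited tables hold what are here called expected counts per gene and cell, not whole numbers, per the file values. The step that made the values fractional before deposit is not stated in the sources used here. Its effect on the marker sums was not tested. The tables come with the authors' metadata and clusters per cell, which give the percent of mitochondrial counts as deposited. Reads were processed with Seurat and the build mm10, per the submitters' processing notes, and the aligner is not given in the sources used here. Every deposited cell was kept. Counts of dendritic cells were summed per library, rounded, filtered with filterByExpr and scaled by TMM. The test was quasi-likelihood in edgeR 4.0.16 (R 4.3.3), over the 3 young groups, two-sided, with Benjamini-Hochberg adjustment. In fits of expression, clusters and cells of at least 800 counts entered with at least 20 cells per library. Alternatives used DESeq2 1.42.0 and other filters, totals and sums. Scrublet (scanpy 1.11.5) marked 0.224% of young cells, so doublets were in effect not removed. Same-numbered libraries of day 2 and day 14 deviated together in part, with r from 0.109 to 0.738 across genes. Libraries of other numbers, over the 3 young groups, reached 0.379. The labels do not say what a number marks, and in the stroke groups it goes with the mitochondrial set. The fit was tested on simulated data, in which small changes were missed, so a gene that did not pass may still have changed. Named genes were the 12 highest and 12 lowest called changes between the stroke times (5 and 5 elsewhere, 3 and 3 per cluster) with at least 20 CPM in the higher group and no overlap, plus genes of lists. Predicted, mitochondrial, ribosomal, haemoglobin and receptor genes, and those over 10 times higher in another large class, were not named. The members and lists were chosen with earlier results of these data known. Some values of single genes are not reported here.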

Additional observations from a re-analysis of the deposited data

Results flagged for a closer look

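In groups of 4 libraries, a library stood apart where its gap to the nearest other exceeded Dixon's critical share of the range, which chance gives in about 1 of 20 groups. Replicate 1 of day 14 had 4.31% of its dendritic cells in the cDC1-like DC2, below the other 3, and replicate 1 of day 2 had 3.87% in DC9, above the others. Replicate 3 of day 14 was high in Serpinb9 (250.5 CPM), and replicate 4 of day 2 was low in H2-Q6 (0 CPM). Among sham libraries, replicate 3 was high in H2-Q7 (345 CPM) and Galnt6 (34.5 CPM), replicate 1 in Tgfbi (298 CPM), Ffar2 (14.9 CPM) and Rsad2 (14.9 CPM), and replicate 2 in Oasl2 (19.1 CPM). Ffar2, Rsad2, Oasl2 and Galnt6 each had 1 count in all sham libraries, which is the value given.

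The change from day 2 to day 14 differed between dendritic cells and MdC by the interaction term of edgeR (adjusted p under 0.05) for the genes named in the report. As the log2 change in dendritic cells minus that in MdC, it was 5.78 for Serpinb6b, 3.50 for Tpx2, 3.47 for Spire1, 3.29 for Net1 and 2.78 for Pdlim4. Serpinb6b was at 0 CPM in every MdC library of day 14, so its value has no measured MdC change behind it. It was -2.53 for Cpq, -2.52 for Clec2i, -2.34 for Cd209a, -2.23 for Abcb1b and -2.19 for Chn2. In the MHC class II list it was -1.54 for H2-Aa, -1.48 for H2-Ab1, -1.56 for H2-Eb1, -0.70 for H2-DMa, -1.24 for H2-DMb1, -1.39 for Cd74, -1.78 for Ciita and -0.72 for Ctss.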

How the results depend on the processing

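Directions of the named genes held in every alternative that could be fitted: 816 planned values kept direction and side of the threshold, 318 kept direction but lost the call and 0 reversed, and among alternatives added after seeing the data these were 169, 71 and 0. Named genes were picked as called in these libraries, and outside the MdC comparison also without overlap. Fits that leave out libraries could therefore hardly reverse them, and the share over all genes was not computed. Between day 2 and day 14, where 39 genes were called, the count was 116 with DESeq2, 60 with no filter on low counts, 59 with the 2 stroke groups alone, 111 with the replicate block, 109 with the mitochondrial set as a term, 22 without DC5, 1 without DC3 and 0 within the low set, and 0 to 35 with 1 library left out. For day 2 against sham (44) it was 87 with DESeq2, 124 with no filter, 111 with counts rounded up, which moves the median of all genes to 0.13, 0 in cells of at least 800 counts, and 16 to 85 with 1 library left out. For day 14 against sham (67) it was 128 with no filter, 127 with counts rounded up (median 0.14), 7 in cells of at least 800 counts, and 15 to 71 with 1 library left out. In cells of at least 800 counts, these fits held sham replicates 1 and 2 only. Fits of dendritic cells against MdC gave 81 to 241 with 1 library left out.

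In single clusters, DC1 (0 calls) gave 2 with DESeq2, 1 without TMM, 63 with the replicate block, 1 with the set as a term and 0 to 1 with 1 library left out. DC2 (3) gave 15 with DESeq2, 56 with the block and 0 to 4, DC3 (0) gave 2 with DESeq2, 1 with the block, 1 with the set and 0 to 0, and DC6 (4) gave 26 with DESeq2, 50 with the block and 0 to 3. The log2 difference of the dendritic share between day 2 and day 14 was 1.00 with leukocytes other than microglia as the total, 0.99 on that total without DC4 and 0.30 to 0.71 with 1 library left out. Against sham at day 2 it was -0.062 and 0.13 on these totals, and 2.08 to 2.50 with 1 library left out. Cluster shares called were 3 of 9 between the stroke times and 5 at day 14 against sham in cells of at least 800 counts, 6 at day 2 and 8 at day 14 against sham with all cells as the total, and with 1 library left out 1 to 2 between the stroke times, 3 to 4 at day 2 and 2 to 3 at day 14 against sham.

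The replicate numbers of sham did not pair with those of stroke (lowest r -0.091), and 7 of 12 libraries correlated best with their own number. In sham a single count is 14.9 CPM or more.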
